A study of Mus musculus with 15 samples.

Results

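RNA levels in liver tumors that had been regressing for 72 hours were compared with those in control liver on Agilent whole-genome mouse arrays, 1 Cy3-labelled RNA sample per array. The comparison uses 7 of the 15 arrays of the series, chosen by their labels alone: 4 arrays of early tumor regression and 3 of control liver. All mice were of the FVB/N strain and were given chow with 200 mg/kg doxycycline until they were over 8 weeks old. Regression samples were taken from liver tumors of mice with both the LAP-tTA and the TRE-MYC transgene. These mice spent 8 to 9 weeks without doxycycline and were then returned to it for 72 hours. Control livers came from mice with LAP-tTA alone, so they never carried the MYC transgene, and the labels give no time off doxycycline for them. The 4 tumor arrays, from mice of the double genotype after 8 to 9 weeks off the drug, serve as a second point of reference. The other 4 arrays are liver of the same double genotype after 4 to 5 weeks off the drug. The labels give no sex and do not say that each array is a separate animal, so the p-values measure the spread between these samples.

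In this model the LAP promoter, which is active in liver cells, drives the tetracycline-controlled activator tTA. The activator turns on the MYC transgene only while doxycycline is absent. MYC is a transcription factor that drives cell growth, ribosome production and division. Once it is shut off, tumors of this kind stop growing and shrink. The adult liver is known for plasma proteins, detoxifying enzymes, bile acids and urea, whereas the fetal liver makes alpha-fetoprotein and imprinted growth factors. Such tissue is a mixture: hepatocytes share it with Kupffer cells (the resident macrophages), sinusoidal endothelium, matrix-making stellate cells, bile duct cells and blood cells.

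Levels are log2 signals relative to the 75th percentile of their own array, so that 0 is a bright probe and values near -4 lie close to background. Each array held 43379 spots, and 54.4% to 73.0% of them were well above background on the control arrays and 61.7% to 68.9% on the regression arrays. Control 1 stands apart: its correlation with the other controls over all genes was 0.837 to 0.847, against 0.936 between controls 2 and 3, and its median E1A spike-in signal of 34.8 was the highest of the 7 arrays. The arrays lay on 4 slides scanned on 1 day, and 3 of the slides held 1 control and 1 regression array each.

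Of 19207 genes tested with limma, 1601 passed an adjusted p of 0.05 (8.34%), 969 of them higher in the regressing tumors (5.05%) and 632 lower (3.29%). Genes that pass are called higher or lower below, and each ± is the standard error of a log2 difference between 4 regression and 3 control arrays. A median-centred scale gave 1547 calls, of which 1128 (72.9%) were higher, against 60.5% on the main scale. Leaving out single arrays moved the count most for control 1 (1046 calls), control 3 (1052 calls) and regression 1 (1016 calls), and no gene was called in the opposite direction in any of those fits. The median difference over all genes was -0.25. Among the 4802 genes with the lowest levels it was -0.91, with 73 calls higher and 146 lower. Among the 4802 with the highest levels it was -0.04, with 362 calls higher and 249 lower. Whether the signal of dim probes on control 1 has a part in this tilt was not tested. The median difference of a gene list is therefore best read against -0.25. Against the tumor arrays, 3241 genes passed (16.9%), 1608 higher after regression (8.37%) and 1633 lower (8.5%). Both comparisons share the regression arrays.

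**Figure D1:**
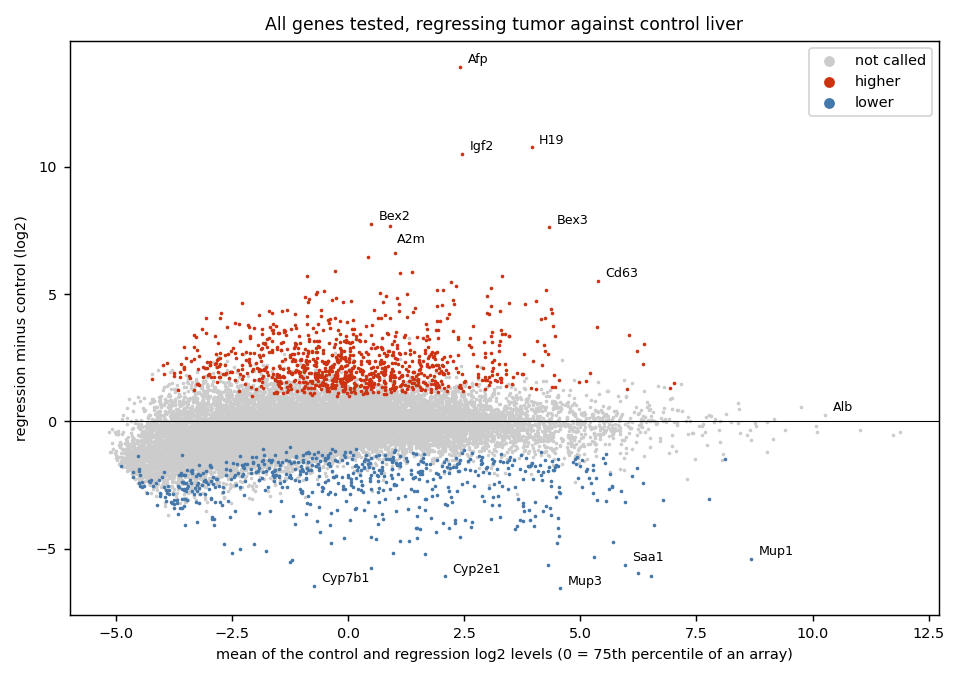
Log2 difference between regressing tumors and control liver (vertical axis) against the mean log2 level of both groups (horizontal axis) for the 19207 genes tested. Each point is 1 gene: red points are the 969 genes called higher, blue the 632 called lower and grey those not called. Afp, H19 and Igf2 lie highest, and Mup3, Cyp7b1 and Cyp2e1 are among the lowest.

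The state of MYC was read first, from the 3 Myc probes on the array. On the probe that is high in tumors (3.66 to 4.81), regression arrays 1 to 4 had levels of -0.56, -0.24, -0.10 and -0.82, and controls 1 to 3 had -0.23, -0.94 and -1.63. Regression 3 lay just above the highest control and the other regression arrays within the control range. The difference was 0.50 ± 0.54 (limma adjusted p = 0.61 over all passing probes). The brightest Myc probe gave -0.44 ± 0.47 against control and the dimmest 0.45 ± 0.45. Neither of these was high in tumors, where their means were 0.81 and -3.16. Mycn, the related neuronal family member, differed by -1.1 ± 0.53 (adjusted p = 0.21).

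**Figure D2:**
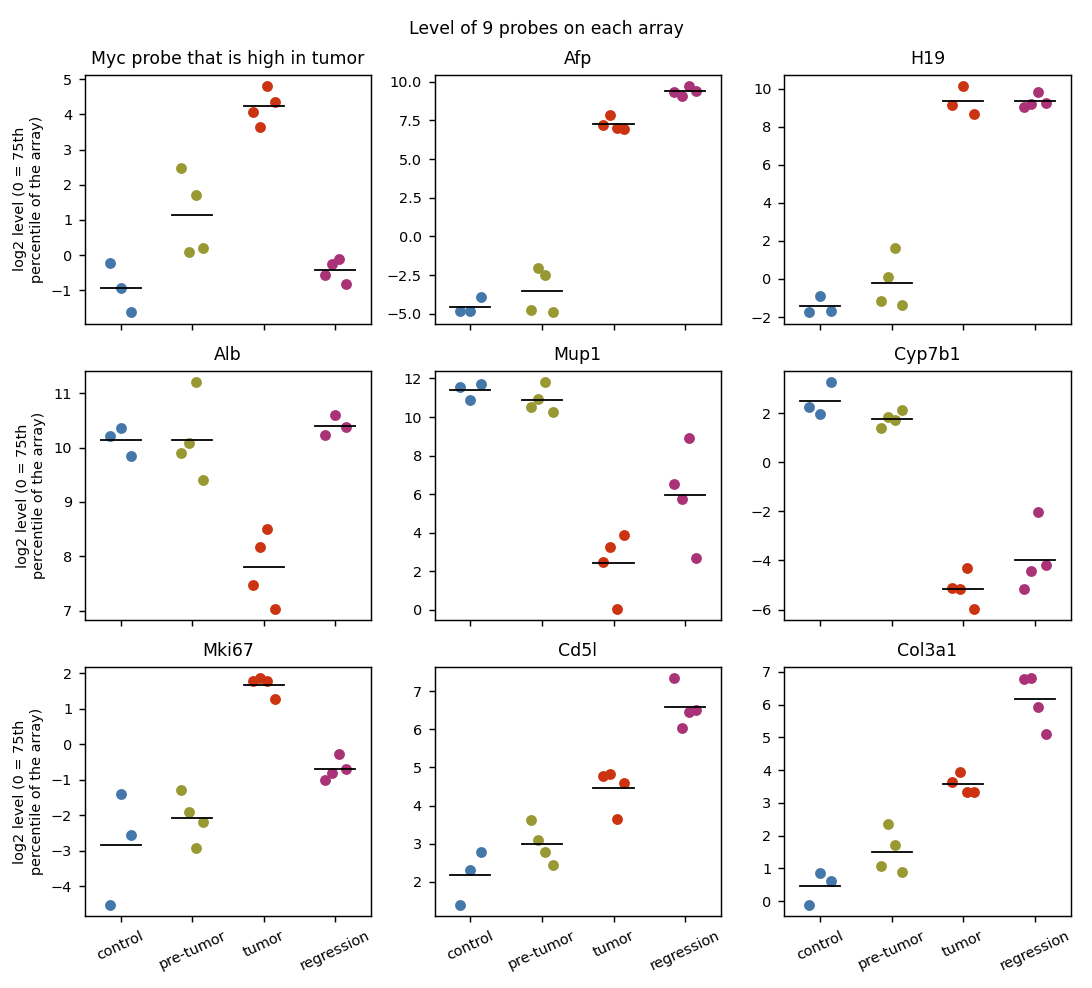
Log2 level of 9 probes on each of the 15 arrays (vertical axes; 0 is the 75th percentile of the array) by group, with 1 point per array and a bar at the group mean. The Myc probe overlaps the controls after regression, Afp, H19, Cd5l and Col3a1 stay far above control, Alb is back within the control range or just above it, and Mup1 and Cyp7b1 stay below every control.

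The 3 largest differences from control among the genes of the fetal list were in Afp, H19 and Igf2. Of 22 fetal and oncofetal genes measured, 10 were higher and 0 lower, with a median difference of 1.87. Against the tumor arrays 3 were higher (Afp, Gpc3 and Cd24a), 1 was lower (Hmga1) and the median was -0.23. The largest change was in Afp, the alpha-fetoprotein of fetal serum, which lies beside its relative Alb, the albumin gene, on chromosome 5. Their 2 RefSeq promoters (GRCm38.p6, plus strand, the 250 bases before each annotated start, which are 29844 bases apart) are shown because these neighbours differed in how far they were from control. Capitals mark TATAAA, the TATA box letters, and GTTAAT, the core letters of HNF1 sites, searched on both strands.
Afp, chr5:90490464-90490713: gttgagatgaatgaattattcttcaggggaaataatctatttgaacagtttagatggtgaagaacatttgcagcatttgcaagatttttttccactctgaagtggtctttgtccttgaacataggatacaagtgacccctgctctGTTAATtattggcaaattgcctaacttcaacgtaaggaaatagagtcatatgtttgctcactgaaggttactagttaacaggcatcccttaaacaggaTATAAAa
Alb, chr5:90460620-90460869: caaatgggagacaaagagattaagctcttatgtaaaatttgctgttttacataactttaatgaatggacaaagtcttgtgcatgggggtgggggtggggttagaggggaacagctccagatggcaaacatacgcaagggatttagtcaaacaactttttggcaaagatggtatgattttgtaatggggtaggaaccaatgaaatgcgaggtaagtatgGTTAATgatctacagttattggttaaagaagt
The window of Afp holds both motifs and that of Alb holds GTTAAT alone. The TATAAA of Afp begins 7 bases before its annotated start. Only these 250 bases were searched, so a TATA box of Alb outside its window would not be seen. Among promoters of the tested genes TATAAA was found in 9.75%, and in 7.46% of those of genes called higher and 13.1% of those called lower. The shares for GTTAAT were 5.27%, 4.58% and 7.14%. The MYC-binding E-box CACGTG was in 7.26% of promoters of tested genes, 6.67% of those of genes called higher and 6.65% of those called lower. These motifs do not overlap each other, and a match is a description of letters only.

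Afp had levels of 9.31, 9.10, 9.74 and 9.39 on regression arrays 1 to 4, against -4.85, -4.85 and -3.93 on the controls, where no array showed it well above background. It was therefore at least 4819.5-fold higher (13.93 ± 0.60 in the fit, adjusted p = 3.13e-09). It also lay above the tumors by 2.13 ± 0.55 (adjusted p = 0.014). Such a bound sets the regression mean against the lowest signal that counted as well above background on each control array. Where the probe's own signal on that array was higher, it was used instead. Alb, in contrast, had 10.24, 10.60 and 10.37 on the 3 regression arrays with a usable spot and 10.21, 10.36 and 9.84 in the controls (0.27 ± 0.47, adjusted p = 0.78), and was 2.61 ± 0.44 above the tumors. The pair thus differed in that Afp stood far outside the control range and Alb overlapped it.

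H19, an imprinted noncoding RNA of the fetal liver, had levels of 9.06, 9.22, 9.81 and 9.25 after regression and of -1.76, -0.87 and -1.66 in the controls, a difference of 10.76 ± 0.61 (adjusted p = 1.48e-07). Igf2, the fetal growth factor gene next to it on chromosome 7, had 7.46, 7.91, 8.23 and 7.24 against -3.46, -2.87 and -2.07, a difference of 10.51 ± 0.56, and was well above background on 1 of the 3 control arrays. Against tumors the differences were -0.00 ± 0.61 for H19 and 0.98 ± 0.52 for Igf2, neither of which passed. Gpc3, a cell-surface proteoglycan of fetal liver, was 4.80 ± 0.95 above control (adjusted p = 0.0042) and 5.08 ± 0.88 above the tumors. It was well above background on 1 control array, and regression 4 was low at 0.15 beside 2.01 to 2.06 on the others.

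Some other imprinted or X-linked genes were higher too. Mest, Peg10 and Plagl1, imprinted genes of the fetal list picked after their values were seen, did not pass (1.39, 1.54 and -0.38). Peg3, an imprinted zinc finger gene, had 4.94, 5.42, 4.41 and 5.16 after regression and -0.45, 0.47 and -1.09 in control liver (5.34 ± 0.47), and another of its probes gave 1.48 and did not pass. The Bex genes encode small X-linked proteins. Bex3 had 8.01, 8.95, 8.14 and 7.48 against 0.68, 1.60 and -0.71 (7.62 ± 0.56). Bex1 rose by 6.63 ± 0.60, and Bex2, near background on all 3 controls, was at least 151-fold higher. None of these 3 Bex genes passed the test against tumors, where the differences were -1.36 for Bex1, -0.59 for Bex2 and -0.16 for Bex3. Outside the rule that chose the named genes and picked after their values were seen, like Cd24a and Hmga1 above, Dlk1 (a Notch-related imprinted membrane protein), Bex4 and Igf2bp3 (an oncofetal RNA-binding protein) complete the 10, at 3.58, 4.70 and 2.19. Bex3 is not in the fetal list and is not counted among the 10.

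Other genes among the largest rises are known from macrophages, lipid handling and cell adhesion, although no list of such genes was used to choose them. Ms4a7, a membrane protein of macrophages, rose by 6.47 ± 0.60, from -1.42, -2.98 and -4.0 to 4.94, 3.31, 2.98 and 3.46. Soat1, which esterifies cholesterol, rose by 5.86 ± 0.68, and Abcg1, which exports it, by 5.83 ± 0.55. Cd63, a tetraspanin of late endosomes and lysosomes, rose by 5.53 ± 0.55 on 3 regression arrays with a usable spot. Vcam1, an adhesion molecule for leukocytes, rose by 5.46 ± 0.63, although 1 of its 3 probes gave 0.13. Ms4a7, Abcg1 and Vcam1 were also higher than in tumors (3.00, 1.95 and 2.08), while Soat1 and Cd63 did not pass there (1.57 and 0.78). A2m, a plasma protease inhibitor, was at 4.94, 4.57, 4.96 and 4.44 after regression and not well above background on the controls. It was at least 174-fold above them and 5.63 ± 0.41 above tumors. Entpd1, which splits extracellular ATP, was at least 24.5-fold higher. In all, 122 genes had such a lower bound upwards and 40 had one downwards.

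The downward bounds were led by Apol9a, an apolipoprotein L family member (at least 12.4-fold lower), Ces1f, a liver carboxylesterase (11.6-fold), Obp2a, an odorant-binding protein (9.18-fold), and E2f8, a repressor of the E2F family (6.08-fold). None of these 4 passed against tumors on the probe used. The other E2f8 probe was well above background on 1 control array and on 0 regression arrays, so no change from control is given for it. Its mean level was -1.50 in tumors and -4.54 after regression, a difference for which no test is given.

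Among the lists of hepatocyte functions, that of clotting, transport and inhibitor proteins had the median nearest to control. Acute phase proteins, which are also secreted, form a list of their own below. Of 26 clotting factors, transport proteins and protease inhibitors, 2 were higher than control, 4 were lower and 20 did not pass, with a median difference of -0.08. Against tumors 23 were higher and 0 lower, with a median of 2.30. The 2 higher ones were F11, a clotting factor (1.74 ± 0.46), and Serpina6, the corticosteroid carrier (1.26 ± 0.36). F11 lost its call when control 3 or regression 1, 2 or 4 was left out, and Serpina6 without any 1 array except regression 1. C9, the last complement component, fell by 2.64 ± 0.44. The other 3 falls were in Mup1, Mup3 and Tat, an enzyme that the list holds beside the secreted proteins and that is named after its value was seen.

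The major urinary proteins, pheromone carriers secreted by liver, held 4 of the 10 largest falls. Mup1 had 6.55, 5.75, 8.93 and 2.69 after regression and 11.58, 10.89 and 11.69 in control liver (fell by 5.40 ± 1.09, adjusted p = 0.0047). Mup3 had 1.19, 0.85, 4.28 and -1.15 against 7.51, 7.80 and 8.24 (fell by 6.56 ± 0.86). Mup4 fell by 6.07 ± 0.92 and Mup5 by 5.33 ± 0.94. Regression 3 was the highest and regression 4 the lowest of the regression arrays for all 4. No regression array reached a control, which the rule for the 10 largest falls required. Above tumors were Mup1 (3.56 ± 1.01), Mup4 (2.59 ± 0.85) and Mup5 (2.85 ± 0.87). Mup3 did not pass there (1.71 ± 0.79). Members of this family are nearly identical, so signals of single Mup genes cannot be told apart with certainty. The same holds for the serum amyloid, orosomucoid and P450 subfamily genes named below.

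Enzymes that detoxify were widely below control. Of 25 cytochrome P450 and conjugating genes, 19 were lower and 0 higher, with a median difference of -2.41, and against tumors 19 were higher and 0 lower, with a median of 2.32. The mean level of the list was 2.02 to 3.06 on the regression arrays, between the control range of 4.49 to 5.25 and the tumor range of -0.39 to 0.52. Cyp2e1, which oxidises ethanol, had -0.63, 0.17, 2.27 and -5.62 after regression and 5.68, 4.61 and 5.07 in control liver (fell by 6.07 ± 1.33, adjusted p = 0.0087), with regression 4 far below the rest. Cyp2a4, a steroid hydroxylase, had 1.15, 1.63, 2.97 and 1.37 against 5.81, 5.40 and 5.71 (fell by 3.86 ± 0.45) and was 3.54 ± 0.42 above tumors. Cyp2c29 fell by 3.70 ± 0.43, the conjugating enzyme gene Ugt2b5 by 3.53 ± 0.44 and Cyp2c38 by 5.75 ± 0.65. In each of these no regression array reached a control.

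Bile acid genes showed the same side of control in fewer members: 6 of 16 were lower and 0 higher, with a median of -0.92, while 10 were higher than in tumors. Cyp7b1, an oxysterol hydroxylase, had -5.17, -4.44, -2.04 and -4.20 after regression and 2.25, 1.95 and 3.27 in the controls. It fell by 6.45 ± 0.60 (adjusted p = 1.2e-05) and was well above background on 1 regression array. Slco1a1, a carrier of organic anions, had -5.10, -4.30, -1.44 and -5.21 against 1.56, 1.17 and 1.77 (fell by 5.51 ± 0.73), also with 1 regression array above background. Baat, which joins bile acids to amino acids, fell by 3.82 ± 0.47 and was 2.82 ± 0.44 above tumors. Cyp7a1, the rate-limiting enzyme of bile acid synthesis, was at -1.64, -0.32, -0.80 and -1.44 after regression, inside the wide control range of -1.14 to 3.06 for 2 of 4 arrays, and did not pass (-2.21 ± 0.74, adjusted p = 0.081).

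Cyp7b1, Slco1a1 and the Mup genes are also male-biased in mouse liver, and 14 of the 17 male-biased genes measured were lower than control, with 0 higher and a median of -3.16. Nudt7, a peroxisomal hydrolase of that list, fell by 3.30 ± 0.40. Of 16 female-biased genes, 3 were lower and 2 higher, with a median of -1.70. Cyp2a4 and Cyp3a41a (fell by 1.62 ± 0.40) were among the lower ones, the latter not called without control 1, control 2, regression 1 or regression 2, and Abcd2, a peroxisomal transporter of fatty acids (4.15 ± 0.64), and Hao2, a peroxisomal oxidase (2.23 ± 0.61, near background on all 3 controls), were the higher ones. Hao2 was called only when no array, control 1 or regression 1 was left out. Without control 1, or without regression 1, 1 female-biased gene was lower, and without any single one of the other 5 arrays only 1 was higher. The sex of the mice was not given, so it was read on the sex chromosome genes, of which 0 of 5 passed. Ddx3y, on the Y chromosome, had -0.24, -0.34 and -0.33 in the controls and -0.36, -0.29, -0.60 and -0.78 after regression (-0.20 ± 0.36). Eif2s3y (-0.29 ± 0.35) and Uty (0.56 ± 0.60), also on the Y chromosome, did not pass. Xist, the RNA that silences an X chromosome, gave -0.17 ± 0.92. Groups overlapped for all 4 of these genes.

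Amino acid breakdown was lower in part. Of 25 genes of the urea cycle and amino acid breakdown, 10 were lower than control and 0 higher, with a median of -1.88, and 9 were higher than in tumors. Without control 1 the count of lower genes was 6. Tdo2, the liver enzyme that opens the tryptophan ring, had -0.81, -0.28, 1.72 and -0.13 against 5.18, 4.07 and 4.77 in the controls (fell by 4.55 ± 0.66). Aass, the first enzyme of lysine breakdown, fell by 4.22 ± 0.66 and Prodh, which oxidises proline, by 3.61 ± 0.55. Cps1, the entry enzyme of the urea cycle, had 5.87, 6.13, 5.93 and 6.79 against 7.42, 6.64 and 6.41, with overlapping groups (-0.64 ± 0.59, adjusted p = 0.54).

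Genes of glucose and fat handling differed less. Beside -0.25 for all genes, the median difference was -0.58 for glucose handling and -0.62 for fatty acid oxidation. It was -0.31 for fat and cholesterol synthesis and -0.78 for oxidative phosphorylation. In the mean level of the glucose, fatty acid oxidation and oxidative phosphorylation lists, every regression array lay below every control. Of 14 genes for gluconeogenesis, glycogen and hepatic glucose handling, 4 were lower and 0 higher: among them Khk, which phosphorylates fructose (fell by 2.22 ± 0.49), and Ppp1r3b, which targets a phosphatase to glycogen (2.21 ± 0.52), the latter not called without control 1 or control 3. This count was 2 without control 1 or without control 3, and 0 on the median-centred scale. Of 21 genes of fatty acid oxidation, 4 were lower, among them Fabp1, the liver fatty acid binding protein (fell by 1.82 ± 0.38), and Acaa1b, of peroxisomal oxidation (2.06 ± 0.53), which was not called without control 1, control 2, regression 2 or regression 4. That count was 1 without control 1 or control 2, 2 without regression 1, 3 or 4, and 0 after median centring. Of 24 genes of fat and cholesterol synthesis, Scd2, a desaturase, was higher (4.35 ± 0.74, above background on 1 control array). Thrsp, a lipogenic regulator, and Elovl6, an elongase, were lower (3.30 ± 0.77 and 1.69 ± 0.48), the first not without control 1 and the second only when regression 1 was the array left out or none was. Of 22 genes of oxidative phosphorylation 1 was lower, Ndufb3 of complex I (fell by 1.36 ± 0.32), a call lost without control 3. The mean level of this list was 2.88 to 3.42 on the regression arrays, 3.68 to 4.12 on the controls and 3.59 to 4.25 on the tumors.

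Of 22 liver transcription factors, 3 were lower and 0 higher, with a median of -0.87. Foxa1, a pioneer factor of liver, had -5.56, -5.63, -5.25 and -4.80 after regression, none well above background, and -0.96, -2.12 and -2.68 in control liver (-3.39 ± 0.63 in the fit). Onecut2 fell by 2.77 ± 0.48. Hnf4a, a nuclear receptor at the head of the hepatocyte network, had 2.09, 2.58, 2.09 and 1.47 against 3.93, 3.16 and 3.98 (fell by 1.63 ± 0.40), a call lost without control 1, control 3 or regression 4. The other 2 Hnf4a probes, above background on all 7 arrays, gave -1.16 and -0.90 and did not pass. Cebpa had overlapping groups (-0.12 ± 0.62). Against tumors none of these 4 passed.

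**Figure D3:**
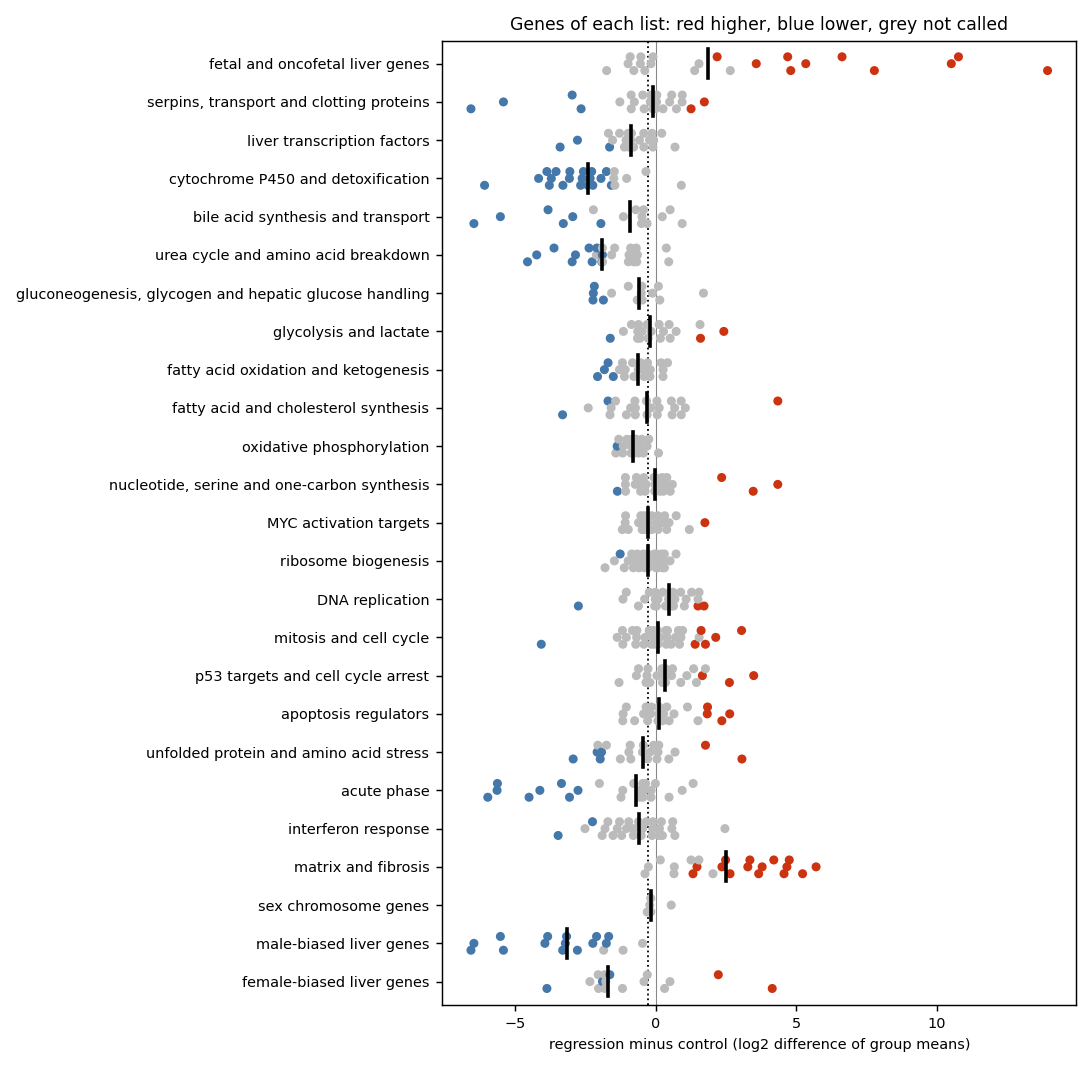
Log2 difference between regressing tumors and control liver (horizontal axis) for each measured gene of the 25 gene lists (rows); red points are genes called higher, blue lower, grey not called. The black bar is the median of the list and the dotted line the median of all genes, -0.25; fetal and matrix lists lie to the right and P450 and male-biased lists to the left.

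Acute phase proteins, which the liver secretes in inflammation, were lower in part. Of 24 measured, 8 were lower than control and 0 higher, with a median of -0.68, and 19 were higher than in tumors. Saa1, a serum amyloid, had 2.24, 2.62, 4.60 and 3.13 after regression and 8.79, 8.64 and 8.86 in the controls (fell by 5.62 ± 0.54, adjusted p = 1.24e-05). Saa2 fell by 5.96 ± 0.99 on 3 usable regression arrays, Saa3 by 5.63 ± 0.64 and Orm3, an orosomucoid, by 3.34 ± 0.43. The other 4 were Saa4, Orm1, Orm2 and Serpina3k, named after their values were seen. The control livers themselves thus carried high serum amyloid levels. Picked after their values were seen, Hp (haptoglobin), Lcn2 (lipocalin) and Serpina3n did not pass against control (-0.35, -1.16 and -0.57) but were 5.64, 6.32 and 5.14 above tumors. Of 29 interferon response genes 2 were lower, Ifit1 (fell by 3.46 ± 0.79) and Isg15 (fell by 2.24 ± 0.57), and neither was called without control 1. Isg15 was also not called without control 3, regression 2 or regression 4. Against tumors 14 of the 29 were higher and 0 lower, with a median of 1.70. Cxcl13, a B cell chemokine, fell by 5.43 ± 0.88, with regression levels of -5.50, -2.82, -1.91 and -5.46.

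Genes of the unfolded protein and amino acid stress responses went both ways: of 22, 4 were lower and 2 higher. The lower ones encode proteins of the endoplasmic reticulum: Hyou1 (fell by 2.93 ± 0.48), Dnajb9 (2.07 ± 0.34), Manf (1.92 ± 0.36) and, named after its value was seen, Herpud1. The higher ones were Atf3, a stress-induced transcription factor (3.07 ± 0.59), and Asns, asparagine synthetase. Asns had 2.00, 2.11, 1.94 and 2.05 after regression, above the controls at -0.39, 0.51 and 0.63 (1.78 ± 0.36) and below tumors by 1.77 ± 0.33. A second probe of Hyou1, near background, gave -1.72 and did not pass.

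Growth genes that are high in tumors were mostly near control. Of 26 MYC activation targets, 1 was higher than control and 0 lower, with a median of -0.26, whereas 22 were lower than in tumors and 1 was higher. The 1 was Tfrc, the transferrin receptor, at 0.14, 0.02, -0.43 and 0.25 against -0.86, -2.27 and -2.14 (1.75 ± 0.41), a call lost without control 2 or control 3. Of 30 ribosome biogenesis genes 0 were higher and 1 lower, Nop16 (fell by 1.26 ± 0.37), while 22 were lower than in tumors. The Nop16 call was lost without any single array except regression 2, and its other probe, also above background on all 7 arrays, gave -0.21 and did not pass.

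Of 20 genes of glycolysis and lactate, 2 were higher than control and 1 lower, with a median of -0.21, and 13 were lower than in tumors. Pkm, the pyruvate kinase of growing cells, had 3.56, 2.70, 2.27 and 2.42 against 0.27, 0.07 and 0.59 (2.43 ± 0.41) and was 1.89 ± 0.38 below tumors. Hk1, a hexokinase scarce in hepatocytes, was higher on its brightest probe (1.60 ± 0.45), and none of its other 5 probes passed. Pdk1, which inhibits pyruvate dehydrogenase, was lower (1.61 ± 0.47). Hk1 was called only when no array, control 2 or regression 4 was left out, and Pdk1 only with all 7 arrays. Hk2 was not well above background in control liver and did not pass (1.58 ± 0.54, adjusted p = 0.085). Ldha, lactate dehydrogenase, gave -0.60 ± 0.38 against control and was 1.25 ± 0.35 below tumors.

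Nucleotide, serine and one-carbon synthesis held 3 genes higher than control among 26, with a median of -0.02, and 24 were lower than in tumors. The 3 were Psat1, Psph and Mthfd1l. Other serine and folate genes, named after their values were seen, did not pass: Phgdh (-0.06), Shmt1 (-1.07), Shmt2 (-0.72), Mthfd1 (-0.52) and Mthfd2 (-0.33). Psat1, a serine synthesis aminotransferase, had 3.43, 3.54, 2.73 and 3.41 against -2.15, -0.23 and -0.82 in the controls (4.34 ± 0.51) and was 2.40 ± 0.47 below tumors. Psph, which makes serine in the last step, rose by 3.47 ± 0.50, with 1 control array above background. Mthfd1l, a mitochondrial folate enzyme, was at least 1.99-fold higher. Psat1, Psph and Mthfd1l were lower than in tumors, so they lay between both groups. Atic, of purine synthesis, passed downwards in the fit, but both groups were near background on all arrays, so no change is given for it.

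Most cell division genes did not pass against control. Of 36 genes of mitosis and the cell cycle, 5 were higher than control and 1 was lower, with a median of 0.08, and 31 were lower than in tumors with a median of -2.62. Mki67, the proliferation marker Ki-67, had -1.0, -0.80, -0.27 and -0.69 after regression and -4.53, -1.40 and -2.57 in the controls (2.14 ± 0.56, adjusted p = 0.028). It was well above background on 1 control array and 2.36 ± 0.52 below tumors, and its other probe gave 0.82 and did not pass. The Mki67 call was lost without control 1, control 3, regression 2, regression 3 or regression 4 (highest adjusted p = 0.137). Cenpa, the centromeric histone, rose by 3.06 ± 0.36 (8.32-fold in the fit, with 1 control array above background), and its dimmer probe gave 1.24 and did not pass. Mad2l1, of the spindle checkpoint, rose by 1.62 ± 0.39, a call lost without control 2, control 3 or regression 1, and its other probe gave 1.39 and did not pass. The count of 5 was 1 without control 3, 2 without regression 1, 2 or 3, and 3 without control 1. Of 28 DNA replication genes, 2 were higher (Mcm2, a helicase subunit, 1.72 ± 0.39, and Cdt1, a licensing factor, 1.51 ± 0.45) and 1 lower (Mcm10, 2.74 ± 0.48), while 25 were lower than in tumors. The median difference of this list from control was 0.49, beside -0.25 for all genes. Its mean level was -1.21 to -1.04 on the regression arrays, above the controls at -1.63 to -1.31 and below the tumors at 0.94 to 1.52. Mcm2 was not called without control 2 or control 3, and Cdt1 was not called without any single array except control 1. Ccnd1, the G1 cyclin, had overlapping groups (-0.03 ± 0.58).

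**Figure D4:**
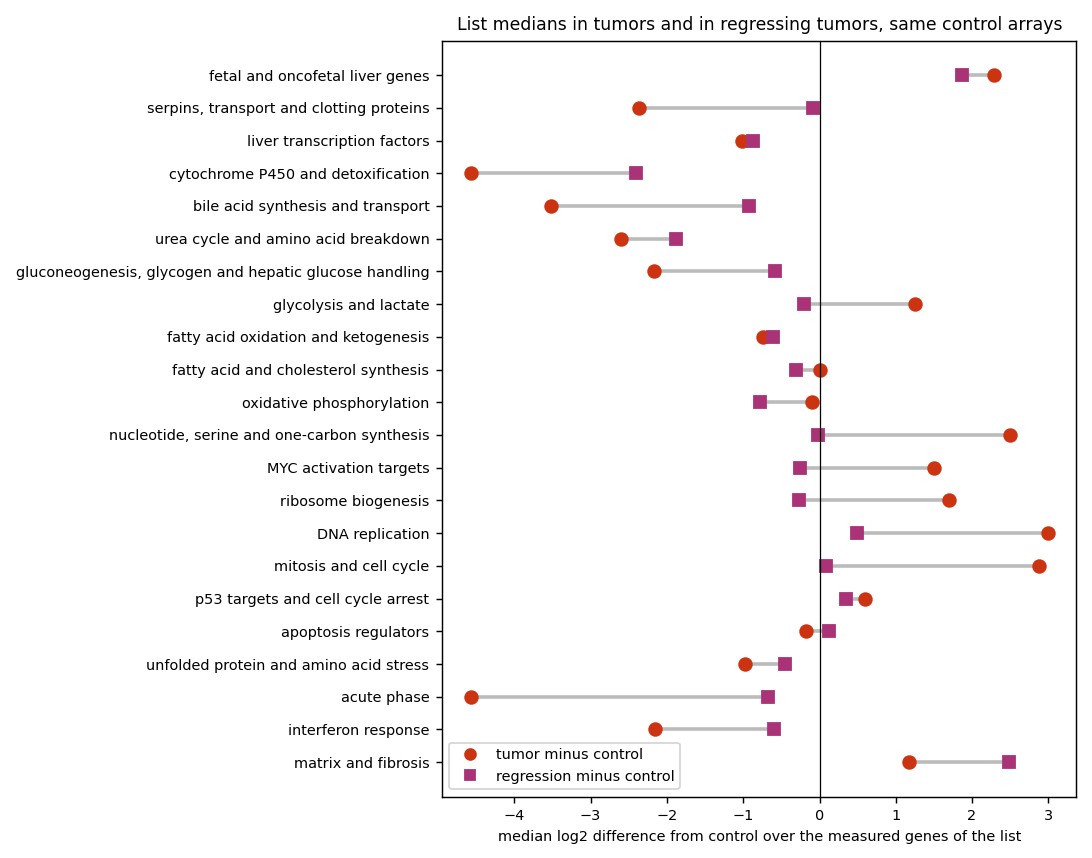
Median log2 difference from control liver over the measured genes of each list (horizontal axis), for tumors (red circles) and for regressing tumors (purple squares), with a grey line between both. Both use the same 3 control arrays. The squares of mitosis and nucleotide synthesis lie near 0 and that of replication at 0.49. Those of P450 and urea cycle genes lie between the circles and 0, and that of the fetal list beside its circle.

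Most regulators of arrest and cell death did not pass. Of 23 p53 targets and arrest genes, 3 were higher than control and 0 lower: Cdkn1c, an imprinted inhibitor of cyclin-dependent kinases (2.63 ± 0.39), Pmaip1, a killer protein of the BCL2 family (3.49 ± 0.73, above background on 1 control array), and Sesn1, a stress-induced sestrin (1.67 ± 0.33). Cdkn1a, the classic p53 target, had 2.21, 2.10, 2.51 and 0.97 against 1.65, 1.51 and 1.62, with overlapping groups (0.35 ± 0.56). None of these 4 passed against tumors. Of 23 apoptosis regulators, 4 were higher than control and 0 lower, and 6 were higher than in tumors. Bcl2l11, the death-promoting BIM, had 1.95, 1.66, 1.71 and 1.75 against -0.66, -0.93 and -0.17 (2.36 ± 0.33, with another probe at 1.82 that did not pass) and was 2.49 ± 0.31 above tumors. Bcl2l1, the protective BCL-X, had 5.93, 5.87, 5.45 and 5.22 against 3.5, 2.65 and 2.79 (2.64 ± 0.49, with 1 of its other 2 probes at 1.35, not passing) and was 2.08 ± 0.45 above tumors. So a promoter and an inhibitor of apoptosis were both above control and tumor on every regression array, on the probes used. On the other Bcl2l11 probe regression 4 (-0.64) lay below control 1 (-0.62). On the Bcl2l1 probe that did not pass, regression 4 (1.82) lay below tumor 3 (1.85). Casp1, the inflammatory caspase, rose by 1.85 ± 0.46. The count of 4 was 2 without control 1, control 3 or regression 1, and Casp1 was among those lost.

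Matrix and non-hepatocyte genes were the other large group above control. Of 23 matrix genes, 15 were higher and 0 lower, with a median of 2.49, and 16 were higher than in tumors. Col3a1, a fibrillar collagen, had 6.79, 6.81, 5.93 and 5.12 after regression and -0.11, 0.86 and 0.62 in the controls (5.70 ± 0.46, adjusted p = 3.05e-06), and 2.60 ± 0.43 above tumors. Another Col3a1 probe, near background, gave -1.46 and did not pass. Col1a2 rose by 5.23 ± 0.50 and Col1a1 by 4.75 ± 0.50, with regression 4 the lowest array for all 3 collagens. Spp1, osteopontin, had overlapping groups (0.66 ± 0.57).

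Of 20 macrophage and Kupffer cell markers, 12 were higher than control and 1 was lower, with a median of 2.12, and 12 were higher than in tumors. Cd5l, a protein secreted by macrophages, had 7.33, 6.04, 6.44 and 6.50 against 1.40, 2.32 and 2.79 (4.41 ± 0.44). Lyz2, lysozyme, rose by 4.72 ± 0.51, Cd68, a lysosomal glycoprotein, by 4.61 ± 0.48 and Gpnmb, a glycoprotein of lipid-laden macrophages, by 4.85 ± 0.79 (1 control array above background). Marco, a scavenger receptor of Kupffer cells, was the lower one, at -0.35, 1.89, 1.1 and 0.26 against 3.10, 4.30 and 3.72 (fell by 2.99 ± 0.62). Among other Kupffer markers, picked after their values were seen, Timd4 was 3.36 higher while Clec4f (-1.0) and Vsig4 (-0.26) did not pass. The 2 probes of Trem2, a receptor of lipid-associated macrophages, disagreed: 0.23 ± 0.56 on the brighter and 2.67 ± 0.50 on the other. The mean level of the 20 markers was 1.92 to 2.41 on the regression arrays, -0.27 to 1.1 on the controls and 0.45 to 0.77 on the tumors. These are whole-tissue samples, in which more cells of a type and more RNA per cell cannot be told apart.

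**Figure D5:**
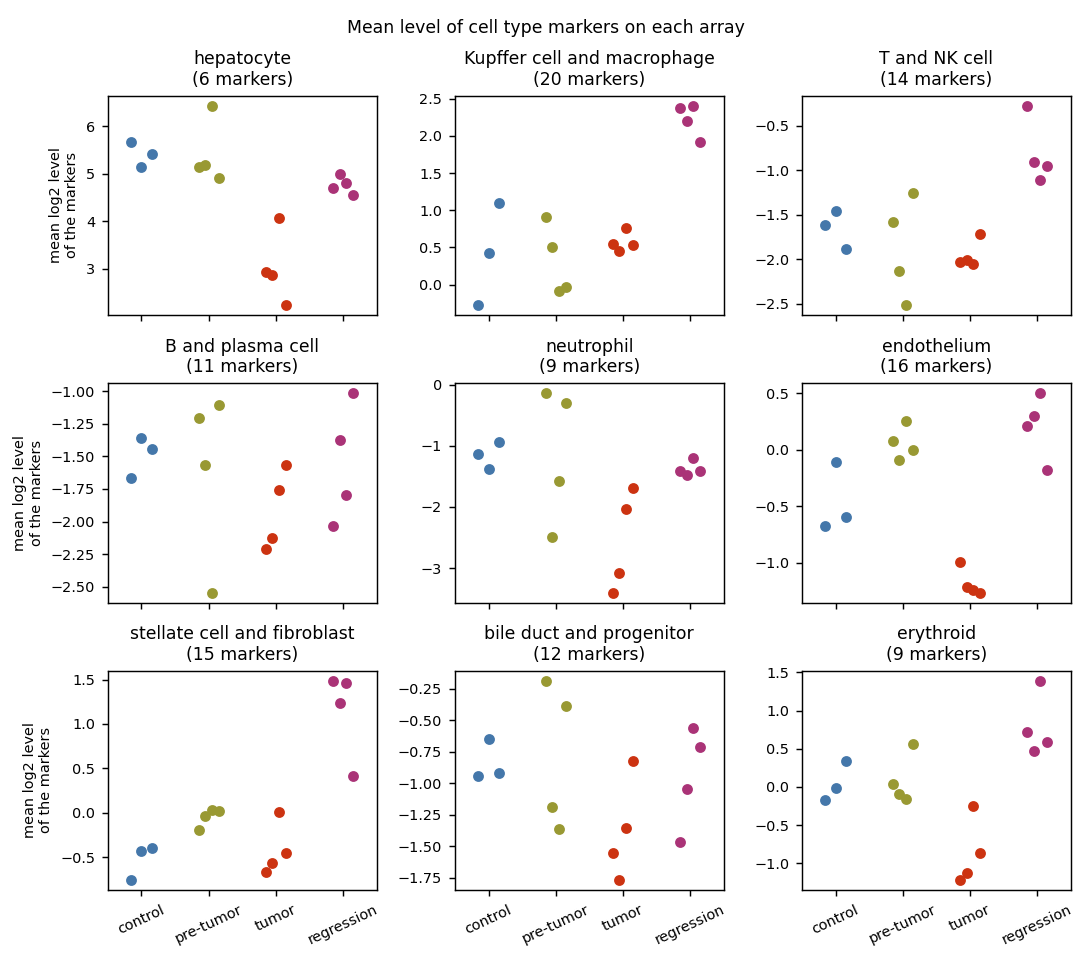
Mean log2 level of the markers of 9 cell types that had a value on every array (vertical axes) on each of the 15 arrays, by group, 1 point per array. The regression arrays lie above all other arrays for macrophage markers and below the controls for hepatocyte markers.

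Other cell types moved less. Of 14 T and NK cell markers, 5 were higher: Cd2 (3.35 ± 0.54, 1 control array above background), Cd3d (2.86 ± 0.52), Cd3g (1.75 ± 0.32) and 2 more, with 0 lower. Their mean level was -1.11 to -0.27 on the regression arrays and -1.89 to -1.45 on the controls. Of 16 endothelial markers, 7 were higher, among them Tie1 (2.31 ± 0.35), Tek (2.18 ± 0.37) and Pecam1 (2.05 ± 0.36), and 1 was lower, Clec4g, a lectin of sinusoidal endothelium (2.03 ± 0.59), whose call was lost without any single array except regression 3 and whose other 2 probes did not pass. The 7 were 4 without control 3, regression 1 or regression 2. Of 16 stellate cell and fibroblast markers, 5 were higher and 0 lower. They include the collagens above and Pdgfrb, a growth factor receptor, at 2.52, 1.57, 1.51 and 1.86 against -1.97, -3.12 and -4.58 (5.09 ± 0.51).

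Of 11 B cell markers 1 was higher, Cd22 (3.22 ± 0.75), a call lost without control 2, and its second probe gave 0.49. Of 13 bile duct markers 1 was higher, Epcam (2.46 ± 0.64), lost without control 2, control 3, regression 1 or regression 3. Of 9 erythroid markers 1 was higher, Slc4a1, the band-3 anion exchanger (1.99 ± 0.49), lost without control 1, regression 2 or regression 3. Of 11 neutrophil markers 0 passed: Ltf gave 1.33 ± 0.54, Camp 1.18 ± 0.83 and Mmp9 -1.29 ± 0.48. The 9 hepatocyte markers had 2 lower and 0 higher, with a median difference of -0.16 beside -0.25 for all genes. The 2 lower ones were Hnf4a, above, and Asgr1, the asialoglycoprotein receptor (fell by 2.23 ± 0.60), which kept its call only when no array or regression 4 was left out. Only 6 hepatocyte markers, Alb not among them, had a value on every array. Their mean level was 4.54 to 4.99 after regression, 5.14 to 5.68 in the controls and 2.23 to 4.08 in tumors. This mean of 6 markers lay below every control beside the lower P450, amino acid and bile acid genes, while the median of all 9 was near that of all genes. The macrophage and collagen levels lay above every control beside the largest rises. Their part in those results was not tested.

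All 107 of the named genes that passed kept their direction within each of the 3 slides that held a control and a regression array. Because these genes passed on the same arrays, this was largely set in advance and is no separate check on the slides.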

How the data were processed

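Per the labels' protocols, RNA was amplified with a whole transcriptome kit, labelled with Cy3 and hybridised to Agilent mouse arrays. The deposited scanner files hold the processed signal as an intensity on a linear scale which, per the file headers, Feature Extraction 10.5.1.1 made by subtracting local background and spatial trend, without scaling arrays to each other. A table of log2 values per probe was deposited too, with its normalization not given in the sources used here and with 4 columns of group means that were not used. The table's columns had Spearman correlations of 0.990 to 1.0 with the arrays' median spot signals, across probes.

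The log2 of each signal was taken relative to the 75th percentile of its array. Spots that Feature Extraction called outliers, within the spot or among its replicates, were dropped (0.452% of spots), and spots of a probe were averaged. Some of the brightest genes, Alb among them, lost 1 array this way, and list levels use only members with a value on every array. Probes well above background on at least 3 of 15 arrays were kept, and a gene was represented by its probe of highest mean, as 7492 genes had 2 or more. Symbols came from the deposited table, updated from RefSeq: 19951 of 21335 were found there. Differences were tested with limma 3.58.1 in R 4.3.3, with 4 group means over the 15 arrays, 11 residual degrees of freedom and Benjamini-Hochberg adjustment over 19207 genes. In all, 4 alternatives to the scaling, 2 to the filter, and others to the block, samples, variance and probes were tried. Tested on simulated data, the fit recovered the larger of the changes put in more often than the smaller ones, and not all of them.

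The comparison, the gene lists and the markers were chosen with earlier results of these data known. Named genes are the 10 strongest rises and falls, each with an adjusted p under 0.05, separate groups, a clear signal on at least 2 arrays per group and a symbol other than a clone, predicted or EST name; the 4 largest bounds each way; 3 members of each list by adjusted p (by size of difference where none passed) with any member called against most of its list; and Myc, Mycn, Afp, H19, Igf2, Gpc3, Alb, Mki67, Ccnd1, Cdkn1a, Hk2, Pkm, Ldha, Hnf4a, Cebpa, Cyp7a1, Cps1, Saa1, Spp1, Gpnmb, Trem2 and Xist. This gave 126 genes, a few of which are not reported here. Normexp correction, an alternative, used median spot signals. Coordinates of probes are not given because the deposited table states no build. The number of arrays limits the precision.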

Additional observations from a re-analysis of the deposited data

Results flagged for a closer look

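Of 123 named genes with a value on all 4 regression arrays, 6 had 1 regression array set apart from the other 3 by a gap above Dixon's critical value for 4 samples. Chance alone sets apart about 1 group in 20, so this count is near what chance gives.

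Regression 4 was lowest for Col1a1, at 3.01 beside 4.99 to 5.33 on the others, and for Gpc3, at 0.15 beside 2.01 to 2.06. Regression 1 was lowest for Orm3, an orosomucoid, at -1.46 beside 0.20 to 0.35, and highest for Pecam1, an endothelial adhesion molecule, at 2.56 beside 1.72 to 1.82. Regression 3 was lowest for both serine synthesis enzymes, Psat1, at 2.73 beside 3.41 to 3.54, and Psph, at -0.27 beside 0.37 to 0.43. In all 6 genes the array set apart still lay outside the range of the controls.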

How the results depend on the processing

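Counts of genes against control moved with the treatment of the arrays, and none of the 21 alternatives called a gene in the opposite direction. With the slide as a block there were 982 calls, 636 higher and 346 lower. Median centring gave 419 lower. With each array's share of spots above background as a covariate there were 2956 calls, 1677 of them lower. Leaving out each control or regression array in turn gave 1016 to 1395 calls, 638 to 856 of them higher and 310 to 539 lower, and 2500 to 3339 calls against tumors. Without the 4 arrays of highest E1A spike-in signal, control 1 among them, chosen after seeing the data, 398 were lower. The replicate block is described below. The remaining alternatives against control, and all of those against tumors except array weights, also chosen after seeing the data, left the counts within 1.5 times. Array weights gave 5263 calls against tumors.

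The replicate numbers are shared by the groups. Same-numbered arrays deviated together with correlations of 0.457, 0.0848 and 0.318, and arrays of different number with correlations from -0.420 to 0.411. Whether the numbers pair the samples cannot be told from these values. The replicate block gave 3514 calls, 2205 of them lower.

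Of the named genes' values, 2419 stayed on their side of the threshold or within their spread, 200 lost the call, 9 gained it and 16 moved. Atic alone changed sign, at 0.011 under normexp correction with quantile normalization (adjusted p = 0.95), and the cause was not tested. Dim probes limit the lowest levels.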
